A study of Homo sapiens with 6 samples.

Results

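The 10 genes examined were the FOS family FOS, FOSB, FOSL1 and FOSL2, the JUN family JUN, JUNB and JUND, and the early response genes ATF3, EGR1 and IER3. They were taken by gene symbol from a list, out of 24462 symbols in the count files. RNA-seq counts came from PC3 cells, a human cell line started from a bone metastasis of a prostate adenocarcinoma and grown here in serum. The cells received siRNA at 80 nM for 72 h, either non-targeting (si-Control, n = 3) or directed against CITED2 (si-CITED2, n = 3), a transcriptional co-regulator that binds the coactivators CBP and p300. The comparison asked how the transcriptome differed after siRNA against CITED2. All 6 libraries came from the same line, and the methods of the study list 1 siRNA sequence against CITED2 and 1 non-targeting sequence, so effects of a sequence and of its target cannot be told apart. The labels number the libraries of a group without tying them to cultures, while the study states that the experiment was performed independently, so p-values measure the spread between these libraries.

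AP-1 is a dimer of basic leucine zipper (bZIP) proteins. JUN proteins pair with one another or with FOS proteins, whereas FOS proteins need a JUN partner to bind DNA well, so the mix of subunits sets which dimers a cell can form. JUN and FOS are strong activators, JUNB and JUND are weaker in many settings, and FOSL1 and FOSL2, also called FRA-1 and FRA-2, lack the strong activation domain of FOS. Several of these genes are immediate early genes: serum, growth factors and stress induce them within minutes through MAP kinases, without new protein synthesis. FOSL1 is a subunit often found at high levels in invasive carcinoma cells.

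The upstream sequences of 4 members are shown because the JUN genes moved unequally and because EGR1 was the member with CArG boxes in the windows searched. They were read from RefSeq (GRCh38.p14), which held a window of 300 bases, 250 before the start and 50 after it, for 8 of the 10 members. FOSL1 and IER3 were not among them, and ATF3 had 2 windows. Each run is written 5′ to 3′ in the direction of the gene, with matches to the searched motifs in capitals. JUNB (chr19:12791236-12791485, plus strand), JUND (chr19:18281623-18281872, minus strand) and EGR1 (chr5:138465229-138465478, plus strand) are shown for the 250 bases before the start. For JUN, 30 bases around its match are shown (chr1:58784096-58784125, minus strand), since the gene model of GENCODE 29 starts farther upstream and places this stretch in the 5′ untranslated region.
JUN: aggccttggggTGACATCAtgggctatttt
JUNB: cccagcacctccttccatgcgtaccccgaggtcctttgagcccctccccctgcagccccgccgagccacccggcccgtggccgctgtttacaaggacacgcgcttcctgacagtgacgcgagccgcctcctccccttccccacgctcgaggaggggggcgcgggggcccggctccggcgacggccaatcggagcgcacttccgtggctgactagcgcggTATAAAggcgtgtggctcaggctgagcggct
JUND: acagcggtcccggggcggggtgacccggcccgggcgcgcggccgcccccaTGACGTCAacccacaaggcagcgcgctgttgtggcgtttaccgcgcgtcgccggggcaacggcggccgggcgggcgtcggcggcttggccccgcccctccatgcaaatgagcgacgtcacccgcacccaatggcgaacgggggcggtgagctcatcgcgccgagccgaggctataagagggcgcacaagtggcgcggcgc
EGR1: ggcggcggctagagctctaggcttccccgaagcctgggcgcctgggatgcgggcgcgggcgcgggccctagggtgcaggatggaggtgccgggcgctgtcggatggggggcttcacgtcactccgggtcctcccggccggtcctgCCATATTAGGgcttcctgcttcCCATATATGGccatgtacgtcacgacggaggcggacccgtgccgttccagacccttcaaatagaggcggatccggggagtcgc

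The motifs searched on both strands were the AP-1 site TGACTCA, the cyclic AMP response element TGACGTCA, the variant TGACATCA, the TATA box as TATAAA and the CArG box, the binding sequence of serum response factor (SRF). The Sp1-type sequence GGGCGG was searched too and is not capitalised. JUN held TGACATCA 67 bases before its start, a match found in 2.61% of 35116 promoter windows, and 1 window of ATF3 held the same letters 123 bases before the start. JUND held TGACGTCA 200 bases before the start (1.85% of windows) and JUNB held TATAAA at 31 bases (11.5%). TATAAA also lay 33 bases before the start of FOS, 30 before that of FOSB and, in the other window of ATF3, 230 before the start. EGR1 held 2 CArG boxes, at 105 and 83 bases (1.29%), and FOSL2 had TGACTCA just after its start (4.95%). GGGCGG stood in 45% of windows, and JUND held it 6 times. These matches describe letters in fixed windows and not binding.

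The libraries held 19508925 to 28936374 counts, so 3 counts, the smallest level taken as detectable, corresponded to 0.104 to 0.154 CPM, that is, counts scaled to a common library total. CITED2, the targeted gene, had 966, 1108 and 657 counts in the libraries labelled si-Control and 893, 964 and 898 in those labelled si-CITED2. After normalization its mRNA was 841 ± 61.4 and 996 ± 82.4 normalized counts (SD, n = 3), a log2 fold change of 0.24 (SE 0.07, adjusted p = 0.03626, edgeR quasi-likelihood test with Benjamini-Hochberg adjustment). The mRNA of the target was thus higher, not lower, in the libraries labelled si-CITED2, and every direction given here is between the labels. The study describes an immunoblot of CITED2 protein as its check of the knockdown, which was not analysed here. The PC3 markers KRT8, KRT18, EPCAM, VIM and CD44 were present in all libraries, and KLK3 had 0 to 2 counts. CTNNA1, with 9796 to 13339 counts, was not near 0 although PC3 cells are known to carry a deletion there. Of 6 markers of blood, endothelial and stromal cells, the sum was 14.2 to 16.1 normalized counts in the libraries labelled si-Control and 32.8 to 44.0 in those labelled si-CITED2. Among them HBB, a globin gene, had 0 counts in each library labelled si-Control and 20, 32 and 20 in those labelled si-CITED2. The higher sum in the libraries labelled si-CITED2 thus mostly follows HBB (mean 25.6 normalized counts there) and is not a level of the list. PECAM1 had 4 to 11 counts and PDGFRB 1 to 12, each with overlapping groups. PTPRC, CD3E and DCN had at most 2 counts in any library. The part of these differences in the results was not tested.

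AP-1 and early response genes moved in both directions. JUNB, JUN, FOSL2, IER3 and ATF3 were higher in the libraries labelled si-CITED2 at an adjusted p under 0.05, FOSL1 was lower, and FOS, FOSB, JUND and EGR1 did not pass the test. The 6 calls among 10 members stand beside 2846 of 16314 genes tested, or 17.4%, with 9.36% of genes called higher and 8.09% lower. The members and the gene lists below were chosen with earlier results of these data known. Their shares beside those of all genes are thus descriptions. The median log2 fold change of the members was 0.329, against -0.00137 for all genes. The groups did not overlap for 8 members, 7 of them higher and 1 lower, beside 32.5% of all genes tested. FOSB entered the test only through the libraries labelled si-CITED2. Its presence among the genes tested, among the 7 higher members and in the median of the members thus carries no information. In these bulk libraries, fewer cells expressing a gene cannot be told apart from less RNA per cell. The plot of values by sample shows each library.

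**Figure D1:**
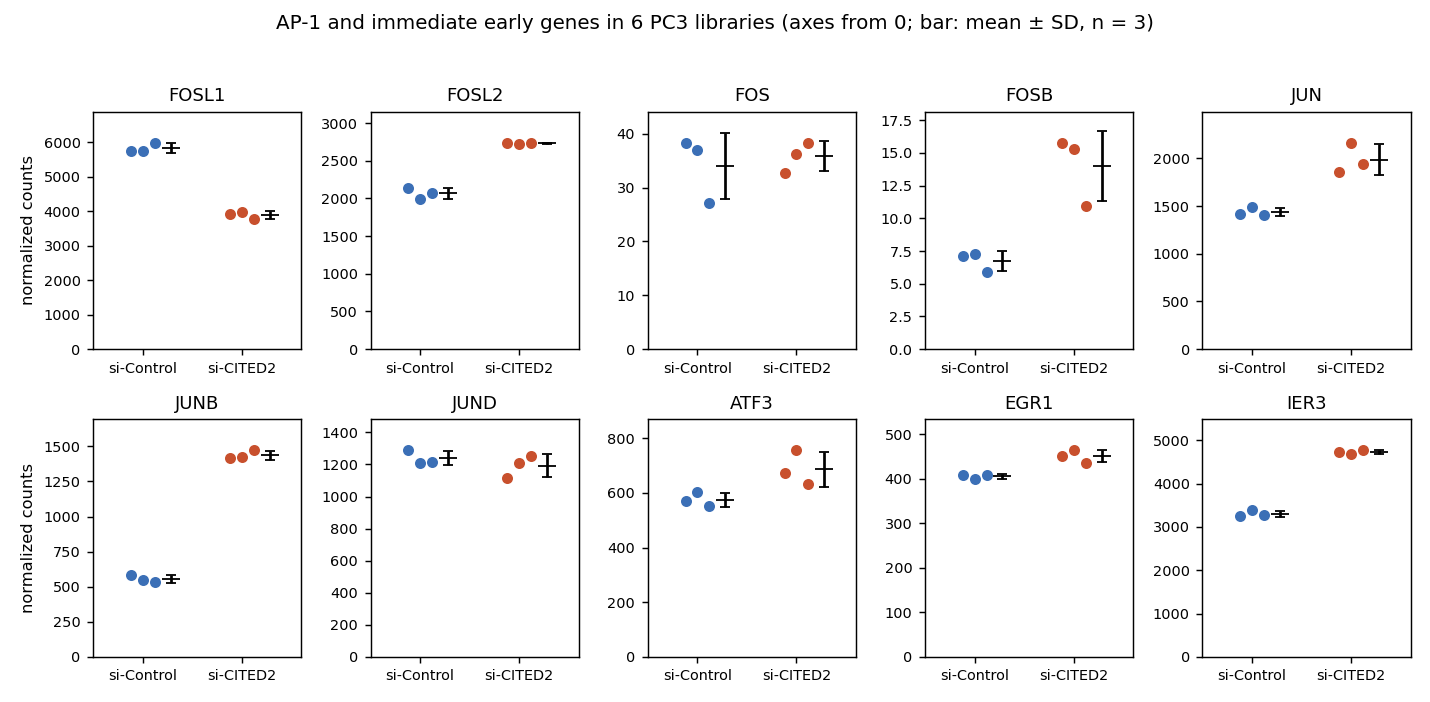
Normalized counts (vertical axes, from 0, a separate scale for each gene) of the 10 genes in each library labelled si-Control (blue) or si-CITED2 (red). Black bars give the mean ± SD of 3 libraries. JUNB rose from 556 to 1437 normalized counts and FOSL1 fell from 5829 to 3901, while the points of FOS and JUND overlapped.

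Within the FOS family, FOSL1 and FOSL2 changed in opposite directions. FOSL1 (chr11:65892049-65900573, GENCODE 29, GRCh38) had 5750.4, 5743 and 5994 normalized counts in the libraries labelled si-Control and 3926, 3996 and 3781 in those labelled si-CITED2. Every library labelled si-CITED2 lay below every library labelled si-Control. The means were 5829 ± 143 and 3901 ± 110 (SD, n = 3), which is 1.49-fold lower, with a log2 fold change of -0.58 (SE 0.048, 95% interval -0.68 to -0.48, adjusted p = 1.763e-07). Only 131 genes, 0.803% of those tested, were called lower with a fold change at least as low. FOSL2 (chr2:28392448-28417312) had 2141, 1989 and 2076 normalized counts in the libraries labelled si-Control and 2729.7, 2729 and 2740.1 in those labelled si-CITED2. The 3 libraries labelled si-CITED2 were nearly equal and all above the other group. FOSL2 was 1.32-fold higher, a log2 fold change of 0.40 (SE 0.051, adjusted p = 2.581e-05).

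FOS and FOSB, the members of the family that serum induces most sharply, had the lowest counts of the 10 members. FOS (chr14:75278774-75282230) had 38.2, 37.0 and 27.1 normalized counts in the libraries labelled si-Control and 32.8, 36.3 and 38.3 in those labelled si-CITED2. The groups overlapped, and the log2 fold change of 0.06 (SE 0.24, adjusted p = 0.9093) had a 95% interval from -0.46 to 0.57. Without si-Control replicate 3, the lowest library, the estimate was -0.069. FOSB (chr19:45467995-45475179) had 8, 9 and 5 raw counts in the libraries labelled si-Control and 13, 16 and 10 in those labelled si-CITED2. That corresponds to 6.75 ± 0.751 and 14.01 ± 2.66 normalized counts (SD, n = 3) without overlap. The log2 fold change of 1.03 (SE 0.41, 95% interval 0.16 to 1.89) did not pass the adjustment over all genes (adjusted p = 0.1014), and without si-CITED2 replicate 2 the gene was too low to be tested. FOSB entered the test only through the libraries labelled si-CITED2. Its fold change, its interval and the lack of overlap are thus a description, not support for a difference. At these depths both intervals were wide, so small differences in either gene could have gone undetected.

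JUNB had the largest log2 fold change of the 10 members. JUNB (chr19:12791496-12793315), whose upstream sequence is shown above with its TATAAA, had 587, 547 and 535 normalized counts in the libraries labelled si-Control and 1415, 1424 and 1471 in those labelled si-CITED2. The lowest library labelled si-CITED2 was far above the highest library labelled si-Control. The means of 556 ± 26.9 and 1437 ± 30.5 (SD, n = 3) gave a 2.58-fold higher level, a log2 fold change of 1.37 (SE 0.063, 95% interval 1.23 to 1.5, adjusted p = 1.1e-10). Across all genes tested, 159 (0.975%) were called with an absolute log2 fold change of at least this size. The JUNB exon shares 259 bases with HOOK2 on the opposite strand, and whether strand was used in counting was not stated. HOOK2 itself had 577 ± 29.7 and 579.7 ± 36.3 normalized counts (SD, n = 3) with overlapping groups.

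JUN, the founding AP-1 subunit, also rose, by less than JUNB. JUN (chr1:58780788-58784327) had 1418, 1489 and 1408 normalized counts in the libraries labelled si-Control and 1860.3, 2165 and 1940.3 in those labelled si-CITED2. The groups did not overlap, although the libraries labelled si-CITED2 spread more widely. The level was 1.38-fold higher, a log2 fold change of 0.47 (SE 0.062, 95% interval 0.34 to 0.60, adjusted p = 4.616e-05). JUND (chr19:18279760-18281622), the JUN gene expressed most steadily across cell states, had 1288, 1210.1 and 1218 normalized counts in the libraries labelled si-Control and 1115, 1207 and 1254 in those labelled si-CITED2. The highest library labelled si-CITED2 lay inside the range of the other group. Its log2 fold change was -0.05 (SE 0.062, adjusted p = 0.6225), with a 95% interval from -0.19 to 0.08 that lies below the intervals of JUN and JUNB. The plot of fold changes with their intervals shows this order within the JUN family.

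**Figure D2:**
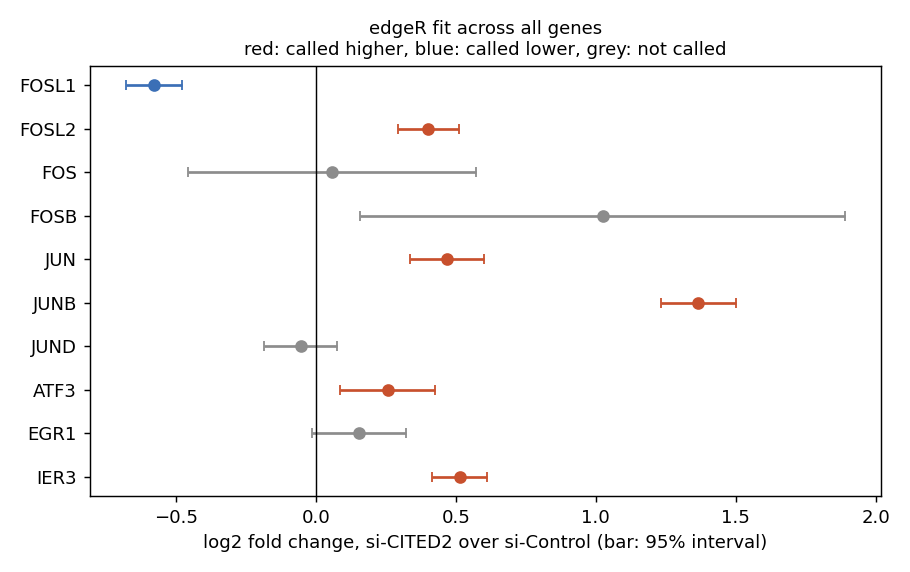
Log2 fold change between the labels (horizontal axis, si-CITED2 over si-Control) of each member in the edgeR fit, with 95% intervals as bars. Red marks genes called higher, blue the gene called lower and grey those not called. JUNB lies at 1.37, FOSL1 at -0.58, and the intervals of FOS, JUND and EGR1 include 0.

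IER3, an early response gene that modulates apoptosis and ERK signalling, also rose. IER3 (chr6:30743199-30744554) had 3254, 3389 and 3273 normalized counts in the libraries labelled si-Control and 4725, 4674 and 4766 in those labelled si-CITED2. The groups did not overlap. The level was 1.43-fold higher, a log2 fold change of 0.51 (SE 0.047, adjusted p = 5.633e-07). IER3 had 6 rows in the files, 5 of them at 0 in every library, and it shares 359 exonic bases with IER3-AS1 on the opposite strand, which was not analysed here.

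ATF3, a stress-induced bZIP protein that pairs with JUN proteins, showed a smaller rise. ATF3 (chr1:212565334-212620777) had 569.7, 603 and 552 normalized counts in the libraries labelled si-Control and 671, 756 and 632 in those labelled si-CITED2. The highest library labelled si-Control was below the lowest library labelled si-CITED2. The log2 fold change was 0.26 (SE 0.079, adjusted p = 0.03473), which is 1.19-fold. The call was lost without si-Control replicate 1 (adjusted p = 0.07101), without si-Control replicate 3 (adjusted p = 0.1018), without si-CITED2 replicate 1 (adjusted p = 0.05754) and without si-CITED2 replicate 2 (adjusted p = 0.2168). The log2 fold change stayed between 0.18 and 0.31 with any 1 library left out.

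EGR1, a zinc finger factor induced through SRF in response to serum, did not pass the test. EGR1 (chr5:138465490-138469315) had 409, 399 and 407 normalized counts in the libraries labelled si-Control and 452, 463 and 436 in those labelled si-CITED2. The groups did not overlap, but the log2 fold change of 0.15 (SE 0.079, adjusted p = 0.2177) was not called. Its 95% interval, from -0.01 to 0.32, includes both 0 and the estimate for ATF3.

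To compare levels between genes, normalized counts were divided by the length of the union of each gene's exons in kb. On this scale of normalized counts per kb, FOSL1 was highest in the libraries labelled si-Control (3089 ± 75.7, SD, n = 3), above IER3 (2438 ± 53.7). There followed JUND (665 ± 23.0), JUN (406 ± 12.4), JUNB (306 ± 14.8), FOSL2 (289 ± 10.6), ATF3 (142 ± 6.43), EGR1 (129 ± 1.62), FOS (10.5 ± 1.89) and FOSB (1.21 ± 0.135). Only JUNB and FOSL2 overlapped among neighbours in this order. In the libraries labelled si-CITED2, IER3 (3482 ± 33.9) stood above FOSL1 (2067 ± 58.1), and JUNB (789 ± 16.8) had moved ahead of JUND (639.8 ± 38.1) and JUN (562 ± 44.6). JUND and JUN overlapped there, while FOSL2 (382 ± 0.876), ATF3 (169.9 ± 15.6), EGR1 (144 ± 4.37), FOS (11.1 ± 0.869) and FOSB (2.52 ± 0.478) kept their order without overlap. These levels depend on the length used, and the SDs do not cover that choice. The union of exons was 4040 bases for ATF3 and its longest transcript 2103, against 3238 and 2158 for FOS and 5553 and 3775 for FOSB. The order was not computed on other lengths, and the annotation used for counting was not given.

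The composition of the AP-1 mRNA pool differed between the labels. The FOS family made up 70.4, 70.9 and 72.1% of the summed counts per kb of the 7 subunits in the libraries labelled si-Control and 56.6, 55.2 and 54.2% in those labelled si-CITED2. The means were 71.1 ± 0.881% and 55.3 ± 1.19% (SD, n = 3), a difference of -15.8 percentage points without overlap. The exact two-sided permutation test gave p = 0.1, the smallest value that 3 against 3 libraries allow. FOSL1 went from 64.8% to 46.4% of the pool and JUNB from 6.41% to 17.7%. JUN went from 8.53% to 12.6%, FOSL2 from 6.06% to 8.58%, and JUND had 13.9% and 14.4%. Within the JUN family, JUNB made up 22.2 ± 0.523% and 39.7 ± 1.29% (SD, n = 3). FOSL1 remained the main FOS family mRNA, at 91.1 ± 0.366% and 83.9 ± 0.413% of that family.

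**Figure D3:**
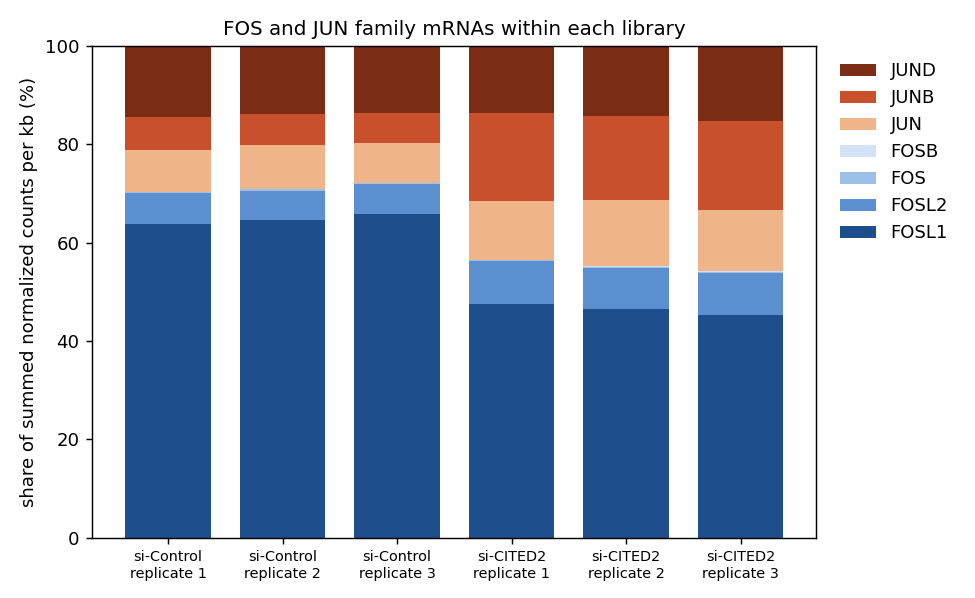
Share of the 7 FOS and JUN family mRNAs (vertical axis, percent of summed normalized counts per kb) in each of the 6 libraries, FOS family in blue and JUN family in orange to brown. The blue part takes 70.4 to 72.1% in the libraries labelled si-Control and 54.2 to 56.6% in those labelled si-CITED2.

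In summed counts per kb, the FOS family had 3389.8 and the JUN family 1377 in the libraries labelled si-Control, and 2463 and 1991 in those labelled si-CITED2. The total of the 7 mRNAs was 4766 ± 58.9 and 4454 ± 91.5 (SD, n = 3). The stacked plot of subunit shares shows JUNB widening and FOSL1 narrowing in each library labelled si-CITED2. These shares describe mRNA, not protein or dimers.

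Other immediate early genes were called in both directions, more of them higher than lower. Of 31 listed, 28 were tested, with a median log2 fold change of 0.235. Of these 28, 14 (50%) were called higher and 3 (10.7%) lower, beside 9.36% and 8.09% of all genes tested. This list, too, was chosen with earlier results of these data known. SGK1, a serum- and glucocorticoid-induced kinase, had 120, 121 and 97.7 normalized counts in the libraries labelled si-Control and 386, 313 and 330 in those labelled si-CITED2 (log2 fold change 1.59, adjusted p = 1.097e-07). CTGF, a matricellular protein, rose by 1.48 on the log2 scale (adjusted p = 6.676e-11), TRIB1, a pseudokinase, by 1.13 (adjusted p = 1.021e-06) and GADD45B, a stress sensor, by 1.04 (adjusted p = 6.607e-09). The genes called lower were ZFP36, an mRNA-decay factor (-0.48, adjusted p = 0.0003374), PPP1R15A, a regulator of stress-dependent translation (-0.35, adjusted p = 0.0006619), and KLF6, a zinc finger factor (-0.35, adjusted p = 0.003068). These 3 were named after their values were seen. With library size in place of TMM scaling, 5 genes were called lower. EGR2, EGR3 and EGR4, relatives of EGR1, were too low to be tested.

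Most of the tested genes known as AP-1 targets were called higher. Of 23 listed, 18 were tested, with a median log2 fold change of 0.484. Of these 18, 13 (72.2%) were called higher and 1 (5.56%) lower, beside 9.36% and 8.09% of all genes tested. The list was chosen with earlier results of these data known. IL6, an inflammatory cytokine, had 52.4, 53.1 and 47.1 normalized counts in the libraries labelled si-Control and 162, 153 and 169.8 in those labelled si-CITED2 (log2 fold change 1.65, adjusted p = 6.036e-07), and IL11, a cytokine of the same family, rose by 1.59 (adjusted p = 7.007e-11). MMP9, a matrix metalloproteinase, had 3, 1 and 1 counts against 22, 31 and 15. It entered the test only through the libraries labelled si-CITED2. Its place among the 13 genes called higher and in the median of the list thus carries no information. The ratio of its summed, depth-scaled counts was 15.7, with an exact 95% interval from 6.42 to 49.97 that covers counting error only. That interval pools the libraries of each group, leaves out the spread between them and is a description, not support for a difference. The gene called lower was CXCL8, a chemokine (-0.29, adjusted p = 0.01028), named after its value was seen, and without si-CITED2 replicate 3 no gene of the list was called lower. The list shares CD44 with the PC3 markers. Targets of AP-1 have other regulators too, and whether AP-1 took part was not measured.

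**Figure D4:**
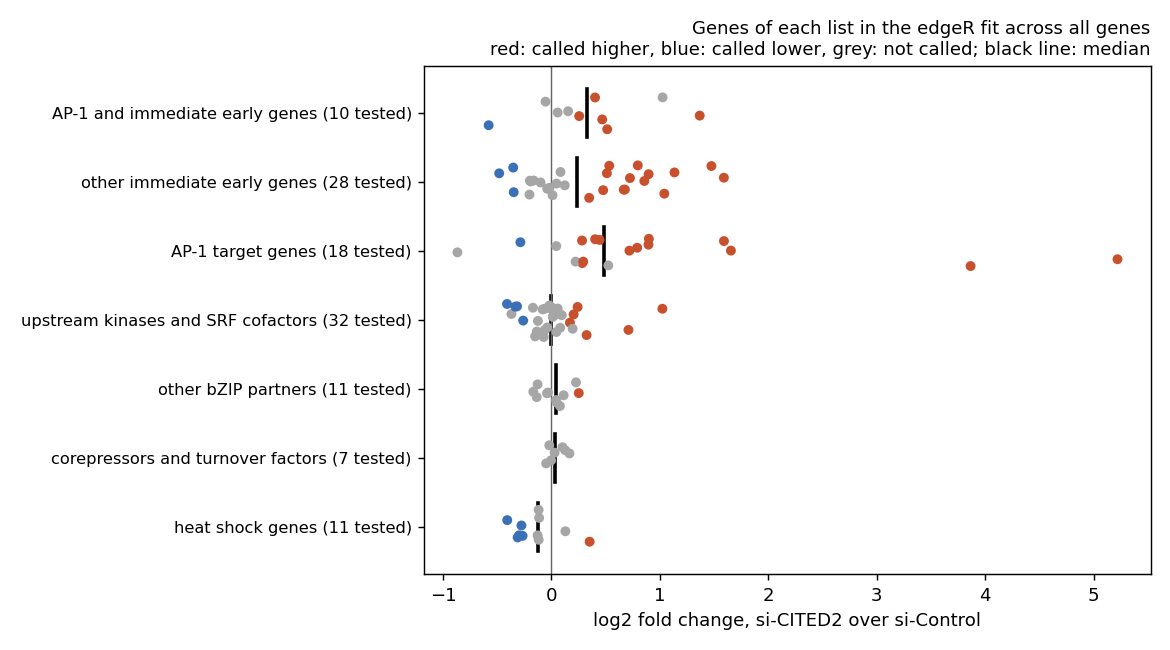
Log2 fold change between the labels (horizontal axis) of each tested gene in 7 lists, 1 point per gene, with the median of each list as a black line. Red points were called higher and blue points lower in the libraries labelled si-CITED2, and the median was 0.329 for the AP-1 and immediate early genes and 0.484 for AP-1 targets.

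The kinases and cofactors that act upstream of FOS, JUN and EGR1 were called in both directions. Of 33 listed, 32 were tested, with a median log2 fold change of -0.00582. Of these 32, 6 (18.8%) were called higher and 4 (12.5%) lower, beside 9.36% and 8.09% of all genes tested. The count of lower genes was 2 without si-Control replicate 2. MKL1, an actin-regulated SRF cofactor, had 571, 584 and 722 normalized counts in the libraries labelled si-Control and 1310.2, 1281 and 1204 in those labelled si-CITED2 (log2 fold change 1.02, adjusted p = 1.096e-07). ELK3, an ETS-family partner of SRF, was higher by 0.71 (adjusted p = 1.699e-08). MAP3K5 (-0.41, adjusted p = 0.006518) and MAPK12 (-0.33, adjusted p = 0.008599), stress-activated kinases, were lower.

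Other bZIP partners of FOS and JUN proteins had log2 fold changes between -0.17 and 0.25. Of 15 listed, 11 were tested and only MAFK, a small MAF protein, was called (log2 fold change 0.25, adjusted p = 0.00716). This share of 9.09% called higher was near the 9.36% of all genes tested. None of the 11 was called lower by edgeR or DESeq2, while edgeR called 8.09% of all genes tested lower. At an unadjusted p under 0.05, 1 of the 11 was lower. The number called higher was 2 without si-Control replicate 1 and 0 without si-CITED2 replicate 3. Of 7 corepressors of EGR1 and turnover factors of JUN proteins, 0 were called by edgeR or DESeq2, while edgeR called 17.4% of all genes tested. At an unadjusted p under 0.05, 2 of the 7 were higher and 0 lower, and 1 was called higher without si-Control replicate 1.

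Heat shock genes, listed as a sign of stress in the cultures, were called in both directions, more of them lower than higher. Of 11 tested, 5 (45.5%) were called lower and 1 (9.09%) higher, beside 8.09% and 9.36% of all genes tested. The median log2 fold change of the 11 was -0.127. The summed level of the 11 genes was 196695 to 202507 normalized counts in the libraries labelled si-Control and 151588 to 166347 in those labelled si-CITED2. HSP90AA1 made up the largest part of this sum, with means of 119648 and 90191 normalized counts. The sum thus mostly follows that gene and is not a level of the list. HSP90AA1, an abundant cytosolic chaperone, was lower by 1.33-fold (log2 fold change -0.41, adjusted p = 2.326e-05), HSPD1 had a log2 fold change of -0.30 (adjusted p = 0.0003179) and HSPB1, a small heat shock protein, was higher (0.35, adjusted p = 0.0001839). HSPA1B (-0.31, adjusted p = 0.001392) has a near-identical copy in HSPA1A, so its reads could have been split. HSPA1A was also among the 5 called lower (-0.28, adjusted p = 0.002268), so the calls of these copies may not be separate. The part of this difference in the values of the members was not tested.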

How the data were processed

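RNA-seq was performed on 6 PC3 libraries (3 labelled si-Control, 3 labelled si-CITED2) from Trizol RNA with a SMARTer mRNA-seq kit. The authors deposited raw read counts per gene symbol, without normalization, 1 file per library. The submitters' processing notes name TopHat, edgeR and hg19, and the counting program, annotation and use of strand were not given in the sources used here. The files held 25737 rows for 24462 symbols, and the row with most counts was kept for a repeated symbol (the rows dropped held 0.0821% of counts). Genes kept by filterByExpr (16314) were fitted with edgeR 4.0.16 in R 4.3.3 (TMM, quasi-likelihood test, two-sided), with Benjamini-Hochberg adjustment over all genes tested, and called at an adjusted p under 0.05. Standard errors came from the F statistics. Normalized counts put every library on the same depth, the mean of the TMM-scaled library sizes. The scripts were tested on simulated data.

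Libraries of a group were not copies of each other (chi-square of 2.9 to 7.57 for each degree of freedom), and the common biological coefficient of variation was 0.0614. Gene positions, exon overlaps and lengths came from GENCODE 29 (GRCh38), since the files hold no coordinates. The members and gene lists were chosen with earlier results of these data known. From each list up to 4 genes with the largest absolute fold change were named, among those called with groups that do not overlap. Some genes of the marker and target lists are not reported here by name. Alternatives were DESeq2 1.42.0, library size or DESeq2 size factors as the scaling, keeping every gene with a count, at least 10 counts in every library, summed rows, the replicate number as a block, each library left out, and, for shares, the longest annotated transcript. Intervals and detection floors cover counting error only where counts alone were used.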

Additional observations from a re-analysis of the deposited data

How the results depend on the processing

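The 5 members called higher and 1 called lower stayed at 4 to 5 and 1 under the 13 alternatives, and the lower count was ATF3, lost in 4 of the fits that left out 1 library. The log2 fold change of JUNB ran from 1.34 to 1.41 and that of FOSL1 from -0.60 to -0.56. FOS ran from -0.069 (without si-Control replicate 3) to 0.14 (without si-Control replicate 1) with 1 library left out. FOSB had no value with at least 10 counts in every library or without si-CITED2 replicate 2, where it no longer passed the filter. With library size in place of TMM, the median log2 fold change of all genes was -0.0184 and 5 other immediate early genes were called lower in place of 3. With 1 library left out, the counts ran from 0 to 2 for bZIP partners higher, 0 to 1 for corepressors and turnover factors higher, 2 to 5 for upstream kinases lower and 0 to 1 for AP-1 targets lower, and the causes were not tested. The FOS family share differed by -16.4 to -15.2 points. Same-numbered libraries did not deviate together (correlation -0.038 to 0.0336, 2 of 6 libraries closest to their own number). This gave no sign of pairing by number, but so few libraries cannot exclude it. With the number as a replicate block, 5 members were called higher and 1 lower, and 1405 genes were higher and 1154 lower, against 1527 and 1319 without it. Depth limited FOS and FOSB, which had 5 to 46 counts.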

Other observations

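The genes most like JUNB across the 6 libraries were CHST11, a chondroitin sulfotransferase (Pearson r = 0.9996), CYTH1, a guanine nucleotide exchange factor (r = 0.9993), and SPINT1, a serine protease inhibitor (r = 0.9992), among 12050 genes with at least 100 normalized counts. Their log2 fold changes were 1.13, 0.69 and 0.56, against 1.37 for JUNB. The 6 libraries share their depth and their labels with JUNB, and the likeness is a description.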
